A study of Mus musculus with 2 samples.

Results

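Sox9, Sox5, Sox6, Runx1, Runx2, Runx3, Sp7, Dlx5 and Mef2c are 9 transcription factors of cartilage and bone, chosen by their symbols among the 19430 genes of a spatial transcriptome of the mouse fracture callus. Sox9 switches on the genes of the cartilage matrix, and Sox5 and Sox6 act beside it on the same genes. Runx2 and Runx3 act as chondrocytes enlarge before bone replaces them, Runx2 is needed for osteoblasts to form, and Sp7, also called osterix, acts after it. Dlx5 is a homeobox factor of osteoblast precursors, Mef2c acts in enlarging chondrocytes and in muscle, and Runx1 is known from blood cells and from early skeletal progenitors.

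The callus bridges a fracture, first as cartilage and then as bone. The labels describe a distal tibia fracture, stabilized with an intramedullary pin and collected after 10 days from 8-week-old mice. The control carried Nf1[+/flox], and the Nf1Postn mouse carried Postn-cre;Nf1[flox/-], in which Cre under the periostin promoter deletes the floxed copy of Nf1, a brake on Ras signaling, in cells that have used that promoter, while the other copy is null in every cell. Both calluses were decalcified for 3 days in 14% EDTA and embedded in 1 block, and 2 sections through it were measured with Visium probes for fixed tissue, which count unique molecules (UMIs) at spots that hold several cells. The labels call the sections biological replicates. The study's methods describe paired calluses of both genotypes in the same block, so each genotype was taken here as 1 mouse. No test between genotypes was therefore possible, and all intervals given are 95% intervals that cover counting error only.

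Of 6380 spots under tissue, 6375 had a genotype. Control spots numbered 1700 in section 1 and 1778 in section 2, with a median of 7053 and 5718.5 UMIs, and Nf1Postn spots numbered 1341 and 1556, with a median of 2030 and 3239.75 UMIs. Levels are UMIs of a gene scaled to the UMIs of a group of spots (CPM), and since the number of probes differs between genes, a level is compared between spots and never between genes. Nf1 itself measured 87.8 and 79.0 CPM in control and 65.6 and 49.6 CPM in Nf1Postn, and whether its probes lie in the deleted part was not checked. All 6 muscle fiber markers were higher in Nf1Postn in both sections, with a summed level of 54637 and 99358 CPM against 12222 and 17872 CPM in control and none at 0. The 6 chondrocyte markers summed to 1534 and 1041 CPM in control and to 282 and 551 CPM in Nf1Postn. Chad made up 182 and 363 CPM of the Nf1Postn sums and in section 2 was higher there than in control (295 CPM). Epyc was higher in Nf1Postn in section 1 (5.78 against 1.92 CPM), and 0 of the 6 were higher in both sections. Fewer cells of a type and less RNA per cell cannot be told apart in such sums.

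In the mm39 coordinates of the count tables, Sox9 lies at chr11:112673050-112678587, Sox5 at chr6:143774151-144727704 and Sox6 at chr7:115070107-115638032. Runx1 lies at chr16:92398354-92623038, Runx2 at chr17:44806874-45125685 and Runx3 at chr4:134847963-134905302. Sp7 lies at chr15:102265041-102275618, Dlx5 at chr6:6877805-6882086 and Mef2c at chr13:83652153-83815200. All 9 are protein-coding. RefSeq windows of 300 bases around annotated start sites, in build GRCm38.p6, were at hand for 6 of the 9 and hold one feature that binds the Runx genes together. A window of each Runx gene holds the same stretch of 18 bases with 2 copies of AACCACA, the Runx binding motif, shown in capitals within 30 bases and given on the strand of the gene.
Runx1, chr16:92826025-92826054, minus strand: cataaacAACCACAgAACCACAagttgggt
Runx2, chr17:44814583-44814612, minus strand: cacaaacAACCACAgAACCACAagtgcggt
Runx3, chr4:135120503-135120532, plus strand: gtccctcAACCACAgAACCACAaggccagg
The stretches lie from base 21 to 50 after the annotated start in Runx1, from base 16 to 45 in Runx2 and from base -142 to -113 in Runx3. On either strand AACCACA was found in 1731 of 32851 windows (5.27%), and the tandem AACCACAGAACCACA in 4 (0.0122%), which are those of the 3 Runx genes and that of Gm16225, which overlaps the Runx3 window. No window of Sox5, Sox6 or Mef2c holds AACCACA. A match is a description of sequence and not of binding.

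Among the SOX factors, Sox9 stood farthest apart between the calluses. In control it measured 552 CPM in section 1 (540 to 565) and 391 CPM in section 2 (380.1 to 402), and in Nf1Postn 97.9 CPM (87.8 to 109) and 79.0 CPM (72.1 to 86.5). Control over Nf1Postn was 5.54-fold with both sections pooled, a log2 ratio of 2.47 (2.37 to 2.57). Both control values lay above both Nf1Postn values by a wide margin, and the sections of 1 callus differed far less than the calluses did. At least 1 Sox9 UMI was found in 67.4% and 60.0% of control spots and in 18.6% and 18.8% of Nf1Postn spots. With each spot thinned to 1000 UMIs, and shallower spots left out, the shares were 28.8% and 23.4% of 1655 and 1695 spots against 8.44% and 6.72% of 1126 and 1443 spots. Over spots rich in muscle fiber genes, which should lack Sox9 (region 1 below), thinned shares were 2.65% in control and 2.78% in Nf1Postn. Before thinning, these spots held few Sox9 UMIs, 20 in 113 control and 55 in 647 Nf1Postn spots. In section 1 they measured 38.8 CPM in control from 18 UMIs and 5.90 CPM in Nf1Postn from 1 UMI. The richest control spot held 60 Sox9 UMIs and the richest Nf1Postn spot 12.

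Sox5 was rare, with 15.5 and 13.1 CPM in control and 6.35 and 6.18 CPM in Nf1Postn, from 22 and 37 UMIs. Its log2 ratio was 1.20 (0.80 to 1.62). Sox6 did not follow the other members of its trio. It measured 53.8 and 34.6 CPM in control and 32.6 and 38.4 CPM in Nf1Postn, so that the ratio pointed to control in section 1 (0.72) and to Nf1Postn in section 2 (-0.15). In Nf1Postn the muscle fiber spots of region 1 held 27.8% of all UMIs. They held 35.3% of the Sox6, 23.7% of the Sox5 (14 UMIs) and 6.77% of the Sox9 UMIs. The part of these spots in the Sox6 ratio was not tested.

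The Runx genes were all higher in control in both sections, yet none of them reached 2-fold in both. Runx2 measured 266 and 244 CPM in control and 193 and 116 CPM in Nf1Postn, with log2 ratios of 0.46 and 1.07. Runx3, at 166 and 137 CPM against 95.3 and 68.8 CPM, had ratios of 0.80 and 0.99. Runx1 had ratios of 0.54 and 0.84, from 54.3 and 52.1 CPM in control and 37.3 and 29.1 CPM in Nf1Postn. Its ratio was the smallest of the family in section 2 and with both sections pooled, while in section 1 that of Runx2 was. The 3 genes thus lay within a narrow range of pooled log2 ratios, at 0.82 for Runx2, 0.95 for Runx3 and 0.73 for Runx1.

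Sp7 measured 145 and 123 CPM in control and 70.8 and 40.8 CPM in Nf1Postn, a log2 ratio of 1.38 (1.24 to 1.52). Dlx5 was close to it, at 147 and 134 CPM against 78.3 and 46.3 CPM, but its ratio in section 1 was 0.91 and so short of 2-fold. The osteoblast factors therefore differed more between the calluses in section 2 than in section 1. Mef2c alone was higher in Nf1Postn in both sections, at 116 and 125 CPM against 98.8 and 99.1 CPM in control, a log2 ratio of control over Nf1Postn of -0.30. When spots were averaged with equal weight as log2(CPM + 1), Mef2c turned to the control side (0.99). Its UMIs were found in 47.5% and 41.7% of control spots and in 22.7% and 33.1% of the shallower Nf1Postn spots. With spots thinned to equal depth, these shares were 9.06% and 8.97% in control and 9.86% and 10.7% in Nf1Postn. The intervals of the thinned shares overlapped in each section, so the higher control share was not seen at equal depth. The part of depth in the turn of the equal-weight mean was not tested.

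**Figure D1:**
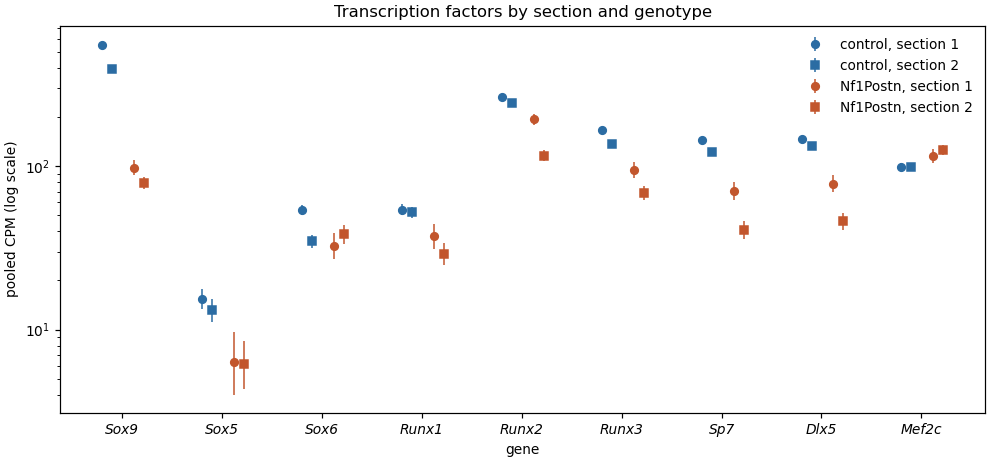
Pooled CPM of each gene (log scale) in control (blue) and Nf1Postn (orange), with circles for section 1, squares for section 2 and bars for exact Poisson 95% intervals. Sox9 shows the widest gap, at 552 and 391 CPM against 97.9 and 79.0 CPM, while Sox6 and Mef2c lie close together in at least 1 section.

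Taking at least 2-fold the same way in both sections as the rule, 3 of the 9 factors (Sox9, Sox5 and Sp7) were higher in control and 0 were higher in Nf1Postn. Among all 11851 genes that reached 50 UMIs in each section, 1.58% were higher in control by this rule and 4.21% were lower. The median log2 ratio was 0.95 over the 9 factors and 0.094 over all genes. Of 19 further factors of the same pathways, 2 were higher in control and 0 lower, with a median of 0.43. These 2 were Nkx3-2, a repressor active in early chondrocytes (2.14), and Dlx3, a homeobox factor of bone (1.60), followed by Dlx6 (1.44), which missed the rule in section 1. The lowest ratios on that list were those of Zbtb16 (-1.49), Hdac4 (-0.47) and Sox11 (-0.16).

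Lists of genes that such factors are known to act on had larger median ratios than the 9 factors, though this did not hold for each factor and gene. Of 10 cartilage matrix genes, 9 were higher in control by the same rule, with a median log2 ratio of 2.19, led by Hapln1 (2.85), Col2a1 (2.61) and Acan (2.48). Of 11 genes of bone and hypertrophy, 5 were higher, with a median of 1.24, among them Col10a1, the collagen of enlarged chondrocytes (2.73), Ihh (2.26) and Alpl (1.57). By these medians the 9 factors, at 0.95, lay below both lists and above the 19 further factors. Sox9 (2.47) lay above both list medians, and Sp7 (1.38) and Dlx5 (1.28) lay above that of bone and hypertrophy.

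Leaving out spots rich in muscle fiber genes changed the ratios, though not all in the same direction. Without the 2 regions rich in muscle fiber genes (regions 1 and 13 below), Sox9 alone stayed at least 2-fold higher in control in both sections, with log2 ratios of 2.37 and 1.72. Sp7 then stood at 0.89 and 0.96, Dlx5 at 0.76 and 1.01, Sox5 at 1.16 and 0.93 and Runx2 at 0.33 and 0.48. A stricter choice kept only spots with under 1% of UMIs from muscle fiber markers, which left 1195 and 580 control and 248 and 98 Nf1Postn spots. In these, Sox9 measured 633 and 503 CPM in control and 111 and 209 CPM in Nf1Postn, with ratios of 2.51 and 1.27. Runx2 measured 278 and 271 CPM against 320.4 and 255 CPM, and its pooled log2 ratio was -0.09. Sp7, at 149 and 139 CPM against 121 and 156 CPM, had a pooled ratio of 0.10. The pooled ratios of Runx1 (-0.08), Runx3 (-0.05), Dlx5 (0.26) and Mef2c (0.13) likewise lay near 0 in spots poor in muscle. Runx3, however, was at 0.18 in section 1 and -0.39 in section 2 (-0.66 to -0.12), and the pooled interval of Dlx5 (0.04 to 0.48) lay above 0. The SOX factors had larger pooled ratios, at 1.96 for Sox9, 1.35 for Sox5 (0.45 to 2.42) and 1.00 for Sox6 (0.53 to 1.51). Sox6 was at 1.61 in section 1 and 0.07 in section 2.

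**Figure D2:**
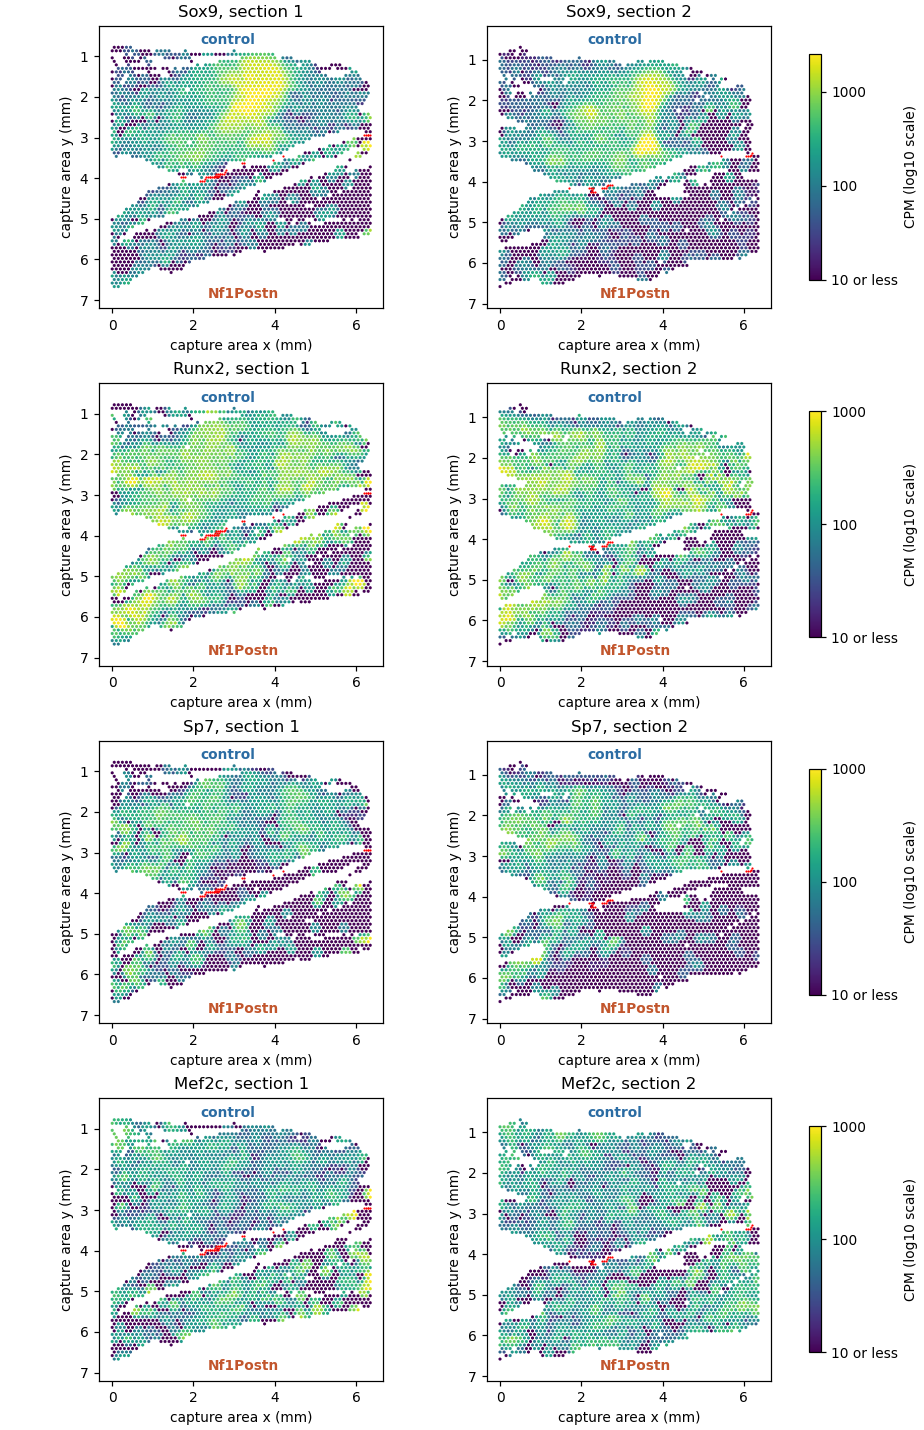
Maps of Sox9, Runx2, Sp7 and Mef2c in both sections, with spots placed by their capture area coordinates in mm and colored by CPM (log10 scale, 10 or less at the bottom) over a spot and its neighbors of the same genotype. Red dots mark the border between the calluses. Sox9 is concentrated in the middle of the control callus, Runx2 and Sp7 on both sides of that area, and Mef2c is spread over both calluses.

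To describe where the factors lay, spots were clustered into 14 regions without the 9 factors and without the 3 lists above, so that their levels did not shape the regions. Regions are named here by their leading genes. Region 12, with 170 and 75 control spots, was led by Ucma, Scrg1 and Cnmd. Region 8, with 259 and 129 control spots, was led by Snorc, Aldh1a3 and Meltf. Chondrocyte markers summed to 4064 CPM in region 12 and 4080 CPM in region 8, against at most 1490 CPM in any other region, so that both are called cartilage regions. They held 4 and 27 Nf1Postn spots. Region 2, led by the osteoclast genes Acp5, Siglec15 and Mmp9, had the highest summed osteoblast and osteocyte markers (2509 CPM) and is called the bone region, with 433 and 287 control and 7 and 10 Nf1Postn spots. Dmp1, a gene of osteocytes, is also among its leading genes.

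Among regions with at least 20 control spots in each section, the SOX trio was highest in region 12. There Sox9 measured 1492 and 1658 CPM, against 334 and 270.1 CPM in all other control spots, a log2 ratio of 2.35 (2.30 to 2.40). Sox6 measured 109 and 107 CPM against 41.1 and 27.7 CPM (1.65), and Sox5 measured 26.6 and 25.5 CPM against 12.9 and 11.9 CPM (1.08). These 3 of the 9 factors were at least 2-fold higher in both sections, where 1.68% of 11294 genes were. Of the trio, only Sox9 had a pooled interval apart from that of every other region. Sox6 was at 108 CPM (97.7 to 119) in region 12 and at 100.5 CPM (86.0 to 117) in region 8. Sox5 was at 26.3 CPM (21.3 to 32.1) in region 12 and at 19.1 CPM (16.0 to 22.6) in region 3. Region 12 held 14.1% of all control UMIs and 45.5% of the Sox9 UMIs. Runx3 was also highest there, at 250.5 and 209 CPM against 146 and 129.96 CPM (0.79), and its interval there did not overlap that of the next region. Runx2 was not, with 233 and 179 CPM against 274 and 249.97 CPM (-0.27). Of 17 further factors, 2 were higher there by the rule, Nkx3-2 (2.41) and Sox8, a near relative of Sox9 (2.05), and 2 were lower, among them Zbtb16 (-1.34). Of all genes, 13.1% were lower there, so the 2 lower factors do not stand out from that share.

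Region 8 and region 12 differed in genes of enlarging chondrocytes. Col10a1 (3.73) and Ihh (3.28) were higher in region 8 than in other control spots, whereas in region 12 Col10a1 was at -0.84 and Ihh at 0.55. Of 10 cartilage matrix genes, 7 were higher by the rule in region 8 and 8 in region 12, with medians of 1.67 and 2.30. Sox9 measured 858 and 785 CPM against 523 and 373 CPM in other control spots (0.89), lower than in region 12 and higher than in any other region. Sox6 alone was at least 2-fold higher in both sections, at 108 and 84.1 CPM against 48.7 and 32.4 CPM (1.30), where 0.673% of all genes were, and 0 factors were lower, where 2.25% were. Runx2 was above the other control spots, at 335 and 306 CPM against 259.9 and 241 CPM (0.38), and Sp7 (0.00) and Dlx5 (0.09) were level with them.

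In the bone region the order was turned. Sp7 measured 231 and 241 CPM against 107 and 88.7 CPM in other control spots (1.26), and Dlx5 measured 239.97 and 239.6 CPM against 106 and 103 CPM (1.20). Both were at least 2-fold higher in both sections, as were 1.51% of all genes. Sox9 (-1.75) and Sox5 (-1.55) were at least 2-fold lower, as were 3.98%. Runx2, at 382 and 421 CPM against 215 and 193 CPM (0.96), fell just short of the rule. The bone region held 26.8% of control UMIs and 46.8% of the Sp7, 45.6% of the Dlx5 and 41.6% of the Runx2 UMIs. Of 17 further factors, 4 were higher there by the rule, among them Dlx3 (1.77) and Dlx6 (1.44), and 1 was lower, Sox8 (-1.08).

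In the remaining regions the factors that passed the rule were all lower. In region 5, led by the immature muscle genes Tnnt2, Myh3 and Myh8, Sox9 (-2.91), Runx2 (-1.34) and Runx3 (-1.33) were lower by the rule, where 2.59% of genes were lower and 4.13% higher, and Mef2c had its highest ratio of any region tested (0.91), at 153 and 188 CPM against 96.9 and 90.7 CPM. In region 3, led by Gpnmb, Fbn2 and Ccl7, Sox6 (-1.22) and Sp7 (-1.27) were lower, where 2.11% of genes were lower and 1.74% higher, and Runx1 had its highest ratio (0.60), at 81.0 and 61.2 CPM against 45.4 and 48.3 CPM. Sox9 was lower by the rule in region 4, led by Mepe and globin genes (-1.64, where 0.496% of genes were), in region 9, led by Angptl7 and Cilp2 (-1.64, where 0.398% were), and in region 10, led by Cadm4 and Cfd (-1.90, where 1.11% were lower and 2.03% higher). In region 6, led by Mmp3, Il1rn and Zbp1, 0 of the 9 passed, where 0.0797% of genes were higher and 0.0177% lower.

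**Figure D3:**
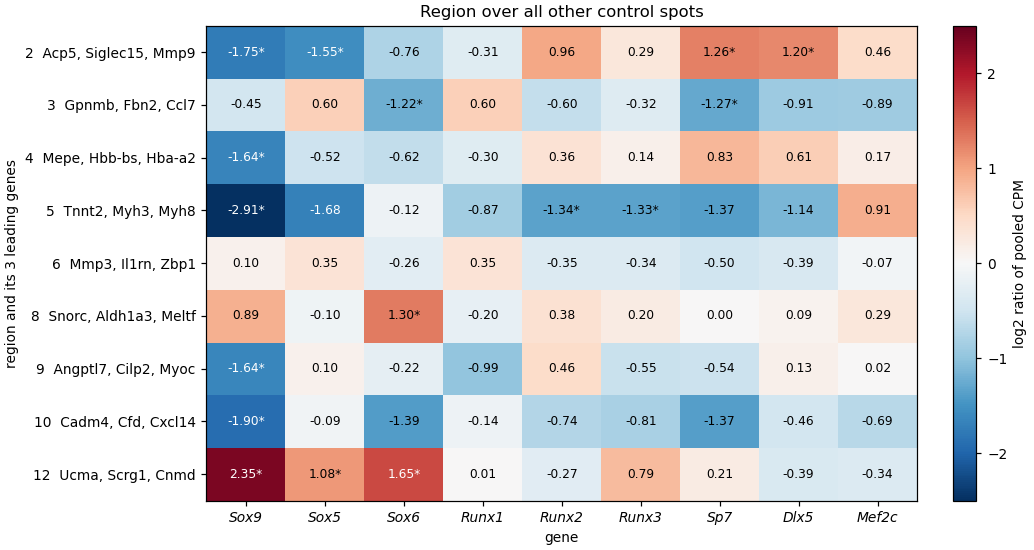
Log2 ratio of each region over all other control spots for each gene, with both sections pooled, red for higher and blue for lower, and a star where both sections were at least 2-fold the same way. The SOX trio is starred in region 12, Sp7 and Dlx5 in region 2, and Sox9 runs from 2.35 in region 12 to -2.91 in region 5.

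The order of the regions differed between members in how firmly counting error separated it. Pooled control levels of Sox9 ran from 1541 CPM in region 12 through 835 in region 8, 509 in region 6 and 376 in region 3 to 174 in region 2, and the intervals of these neighbors did not overlap. Below that, from 174 CPM in region 2 to 67 CPM in region 5, each interval overlapped the next. For Sp7, regions 2 (235 CPM) and 4 (233 CPM) overlapped and both lay above region 12 (153 CPM). For Runx2, the interval of region 2 (397 CPM) overlapped that of region 9 (351 CPM), and those of regions 8 (326 CPM) and 4 (325 CPM) overlapped as well. For Sox5, Runx1 and Mef2c every interval overlapped the next, so that only distant places in the order were apart.

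The balance between Sox9 and Runx2 is a ratio of counts from the same spots, in which the total of UMIs cancels. Of all Sox9 and Runx2 UMIs in control, Sox9 made up 87.7% in region 12 (86.8 to 88.5), 71.9% in region 8 (69.9 to 73.9) and 30.5% in the bone region (29.1 to 32.0). By section it was 86.5% and 90.3% in region 12 and 34.4% and 24.2% in the bone region. These section values lay outside the pooled intervals, which cover counting error only. In region 8 both sections were at 71.9%. In Nf1Postn Sox9 made up 63.0% of 146 UMIs in the 27 spots of region 8 (54.6 to 70.8). In region 6 it was 71.4% in control (68.8 to 73.9) and 37.3% in Nf1Postn (31.6 to 43.3), and in region 3 it was 66.9% (65.4 to 68.4) and 46.3% (40.1 to 52.6). By section, region 6 had 64.5% and 72.0% in control and 31.7% and 40.6% in Nf1Postn. Control spots of region 3 had 70.1% and 62.9%, and its Nf1Postn spots had 51.2% in section 2. Among the Runx genes, Runx3 made up 46.8% of the UMIs in region 12 (44.6 to 49.2), and from 21.6% to 33.4% in the other control regions. Runx1 had its largest share, 18.3%, in region 3.

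Comparing genotypes within a region sets spots of like make-up side by side, as far as both calluses hold them. Regions 4, 5, 6, 9 and 10 had at least 20 spots of each genotype in each section, and in them 6, 7, 3, 1 and 5 of the 9 factors reached the minimum of UMIs. In region 6, Sox9 measured 372 and 523 CPM in control and 132 and 199 CPM in Nf1Postn, a log2 ratio of 1.56 (1.27 to 1.87), and was at least 2-fold higher in control in both sections, where 0.399% of the genes tested were and 0.2% were lower. Section 1 rests on 34 control and 55 Nf1Postn spots. Cartilage matrix genes moved with it in that region, summing to 23991 and 40267 CPM in control and to 9255 and 20856 CPM in Nf1Postn, and their part in the Sox9 ratio was not tested. Runx2 in region 6 ran the other way, at 205 and 203 CPM in control against 286 and 292 CPM in Nf1Postn (-0.51, -0.77 to -0.24).

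In region 10, Dlx5 was at least 2-fold higher in control in both sections, at 108 and 98.3 CPM against 43.1 and 48.9 CPM (1.18, 0.66 to 1.73), where 0.585% of genes were. In regions 4, 5 and 9, where 0.187%, 0.635% and 1.02% of genes were higher in control, 0 of the 6, 7 and 1 factors that reached the minimum passed the rule, and in region 4 0.342% of genes were lower. Sp7 was higher in control but under 2-fold in both sections of region 4, with log2 ratios of 0.91 and 0.62, and of region 5, with 0.97 and 0.83. Dlx5 in region 5 passed 2-fold in section 2 alone, at 0.84 and 1.37, with a pooled ratio of 1.08 (0.60 to 1.58). Runx2 in region 4 was alike in both calluses, at 310.3 and 330.04 CPM in control and 334 and 319 CPM in Nf1Postn, and its log2 ratio was -0.01 (-0.24 to 0.22). Region 8 could be compared in section 2 alone. There Sox9 measured 785 CPM in control and 601 CPM in Nf1Postn (0.38, 0.06 to 0.73), and Sp7 measured 133 and 261 CPM (-0.98, -1.56 to -0.38). In region 3, also in section 2 alone, Runx1 (-0.87) and Runx3 (-0.86) were higher in Nf1Postn, at 112 and 219 CPM against 61.2 and 121 CPM.

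Matching spots by matrix content gave a further view. Spots were put in 5 bins by the share of their UMIs from the 10 cartilage matrix genes, with limits at 1.00%, 2.16%, 7.20% and 15.8%. Pooled Sox9 climbed in control from 149 through 204, 494 and 1139 to 1767 CPM, and in Nf1Postn from 62.0 through 145, 269 and 409 to 717 CPM. With both sections pooled, control was above Nf1Postn in each bin, with log2 ratios of 1.26, 0.49, 0.87, 1.48 (0.96 to 2.05) and 1.30 (0.94 to 1.69). The lowest bin was at 0.71 in section 1 and 1.69 in section 2. The upper 2 bins held 289 and 294 control spots but only 30 and 25 Nf1Postn spots, of which 20 and 9 lay in section 1. With at least 20 spots of each genotype required, the fourth bin could be compared in section 1 alone, at 1.34 (-0.02 to 3.21). The highest bin could be compared in neither section, so its ratio rests on the pooled spots alone. Sox6 also climbed in control, from 20.2 to 141 CPM, and Runx2 did not, with 189 CPM in the lowest bin, 308 CPM in the middle bin and 203 CPM in the highest.

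By the share of UMIs from the bone and hypertrophy list, with limits at 7.07%, 10.2%, 15.1% and 18.4%, Runx2, Sp7 and Dlx5 were higher in the upper bins of both calluses. In the highest bin Runx2 measured 367 CPM in control and 417 CPM in Nf1Postn (-0.18, -0.49 to 0.13), Sp7 measured 289.8 and 204 CPM (0.50, 0.08 to 0.96) and Dlx5 measured 241 and 141 CPM (0.78, 0.27 to 1.33). In this bin the pooled interval of Runx2 included 0 and those of Sp7 and Dlx5 lay above 0. By section, Sp7 was at 0.33 (-0.23 to 0.94) and 0.71 (0.07 to 1.44). Dlx5 was at 0.57 (-0.10 to 1.33) and 1.00 (0.23 to 1.89), so both intervals of section 1 included 0. Other bins differed. In the lowest bin, with 1169 control and 2018 Nf1Postn spots, Runx2 was at 0.92 (0.77 to 1.06) with both sections pooled. It was at 0.51 in section 1 and 1.15 in section 2, both outside that interval, which covers counting error only. In the fourth bin, pooled, Sp7 was at 0.03 (-0.35 to 0.44) and Dlx5 at 0.41 (-0.05 to 0.92). Sox9 ran against this share in control, from 583 CPM in the lowest bin to 129 CPM in the highest.

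**Figure D4:**
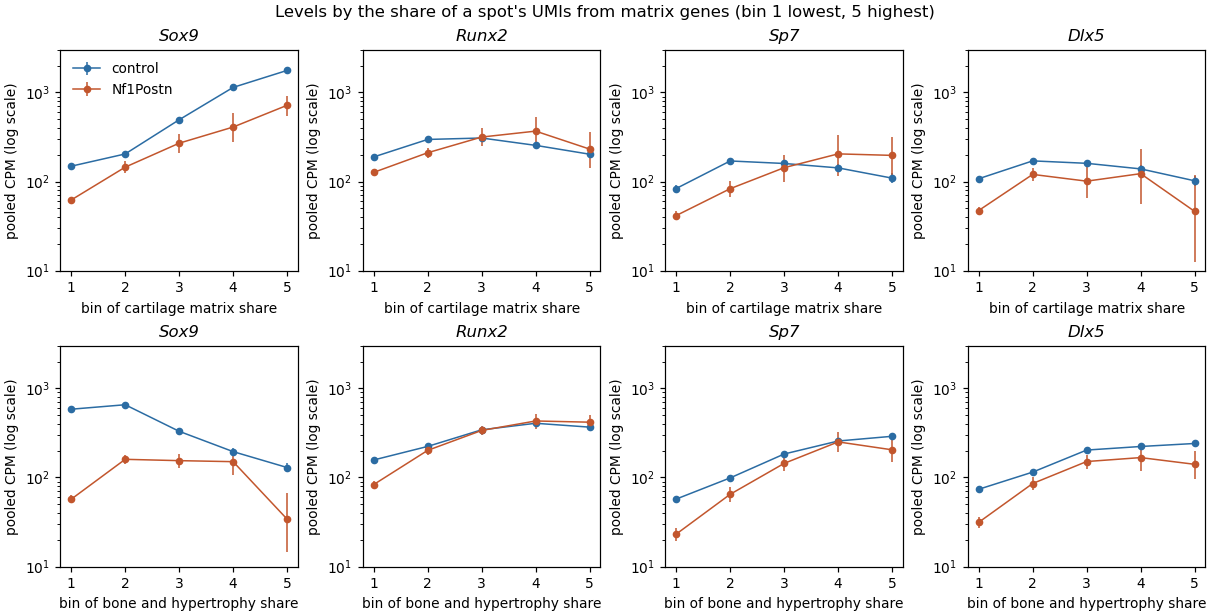
Pooled CPM (log scale) of Sox9, Runx2, Sp7 and Dlx5 in 5 bins of the share of UMIs from cartilage matrix genes (upper row) or bone and hypertrophy genes (lower row), for control (blue) and Nf1Postn (orange), with exact Poisson 95% intervals. Sox9 in control lies above Nf1Postn in every cartilage bin, ending at 1767 against 717 CPM, and the Runx2 curves meet in the upper bone bins.

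Distance was measured from region 8, with region 12 counted among the spots outside, and again from both cartilage regions together, a choice made after seeing the data. In control, Sox9 measured 835 CPM on region 8, then 774, 556, 274, 106 and 56.4 CPM in spots over 50, 250, 500, 1000 and 1500 µm from it. Measured from both cartilage regions, it went from 1314 CPM on them to 403 CPM just outside and 39.1 CPM in the farthest spots, so that it declined with distance either way. The course of Runx3 depended on this choice. From region 8 it was 173 CPM on the region, 213 CPM just outside and 52.7 CPM in the farthest spots, but from both regions it was highest on them, at 217 CPM, then 179 CPM just outside and 52.2 CPM. Sp7 likewise measured 135 CPM on region 8 and 178 CPM just outside, whereas it was level on both regions and just outside them (147 and 147 CPM). Sox6 went from 100.5 CPM on region 8 to 20.2 CPM beyond 1000 µm and 37.1 CPM in the farthest spots. Mef2c was highest in the farthest spots by either distance, at 145 and 184 CPM. In Nf1Postn, region 8 had spots in section 2 alone. Sox9 there went from 601 CPM on those 27 spots to 234 CPM just outside and 32.8 CPM in the farthest 868 spots, and Runx2 from 353 to 45.7 CPM.

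Along the long axis, in bands of 1 mm, the control callus showed a central Sox9 zone in both sections. Sox9 peaked between 3 and 4 mm, at 1380 CPM in section 1 and 1043 CPM in section 2, against 126 and 98.9 CPM in the first band. Runx2 (172 and 151 CPM), Sp7 (85.9 and 67.9 CPM) and Dlx5 (84.2 and 76.2 CPM) were lower in that band than between 4 and 5 mm, where they measured 310.5 and 323 CPM, 171 and 174 CPM, and 163 and 184 CPM. The Nf1Postn callus had no central peak of that size. Its highest Sox9 band lay between 1 and 2 mm, at 132 CPM in section 1, where the intervals of the first 3 bands overlapped, and at 170.1 CPM in section 2 (147 to 195), above both neighboring bands (107 and 87.1 CPM). Runx2 there was highest in the first band, at 373 and 282 CPM, and measured 113 and 36.6 CPM in the last, with Sp7 at 155 and 120.3 CPM in the first band and 59.3 and 5.64 CPM in the last. Spots of the muscle fiber regions made up 0.00% of the first band and 34.7% and 70.6% of the last, and their part in the profile was not tested.

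**Figure D5:**
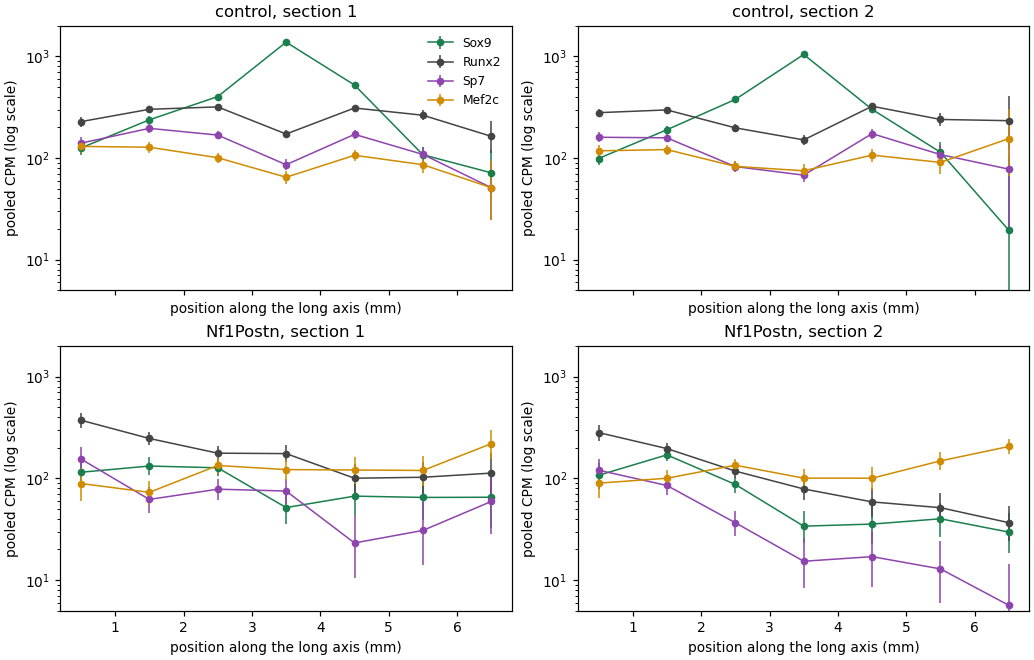
Pooled CPM (log scale) of Sox9, Runx2, Sp7 and Mef2c in bands of 1 mm along the long axis of each callus, with exact Poisson 95% intervals. Sox9 peaks in the middle of the control callus in both sections (1380 and 1043 CPM), where Runx2 and Sp7 dip, and in Nf1Postn its highest band reaches 132 and 170.1 CPM.

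Across 41 sums of spots by region, genotype and section, the members fell into a group that varied together and a few that did not. These correlations describe the sums, which share sections, mice and differences in depth. Sp7 was most like Alpl, the phosphatase of mineralizing cells (r = 0.94), Runx2 (0.90) and Pth1r, the parathyroid hormone receptor (0.89). Runx2 was most like Mmp13, a collagenase of cartilage and bone (0.92), Nrp2 (0.91) and Fat1 (0.91), and Dlx5 like Unc5b (0.92), Creb3l1 (0.88) and Gja1 (0.86). Sox9 was most like C1qtnf3 (0.93), Emilin1 (0.92) and Rbp4 (0.90), and among the members like Runx3 (0.75). Runx3 was most like Chsy1, an enzyme of chondroitin synthesis (0.92), Cdr2 (0.90) and Ckap4 (0.89), and Runx1 like Inf2 (0.92), Col8a2 (0.90) and Tmem158 (0.90). Likeness was lower for Sox6, with Adk (0.82), Ndufa11 (0.82) and Bnip3 (0.81), for Mef2c, with Fxyd1 (0.78) and Ccng1 (0.76), and for Sox5, with Rspry1 (0.75), Wrnip1 (0.72) and Pcbp1 (0.72). Mef2c was negatively correlated with all other members except Sox6 (0.09), from -0.13 with Sp7 to -0.47 with Runx3 and -0.55 with Runx1.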

How the data were processed

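Per the labels and the study's methods, sections were measured with Visium probes for fixed tissue, and per the submitters' processing notes Space Ranger 1.3.0 and mm39 were used. The authors deposited UMIs per gene and spot without normalization, handled here like estimated counts because 10 entries that join several Ensembl IDs are not whole (no member is among them). They also deposited a genotype for each spot and its position. How the border between calluses was drawn is not given in the sources used here. An entry without a gene name was left out (6.8e-05% and 3.8e-05% of UMIs). The 2 sections shared 2711 barcodes, as capture areas of 1 design do.

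Counts were summed over spots and divided by all UMIs (CPM). Ratios of sums carry exact conditional binomial intervals and shares exact binomial intervals. A ratio counted where it was at least 2-fold the same way in both sections, and the background was all genes that reached 50 UMIs per section. Groups under 3 UMIs were set to 3. With each genotype taken as 1 mouse, no p-value was computed, and the procedure was tested on simulated data. Regions came from Leiden clustering (leidenalg 0.10.2, resolution 0.5) on 20 principal components of log2(CPM + 1), centered per section, with 15 neighbors, over 16853 of 16902 genes with a UMI in at least 0.3% of spots. Positions assume 100 µm between spots. Spots of tissue can hold several cell types, so no doublet caller was run. For depth, spots were thinned to 1000 UMIs, which kept 5920. edgeR 4.0.16 and DESeq2 1.42.0 gave scaling factors only. Python 3.11.15 and R 4.3.3 were used.

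All 9 members are named, and listed genes where a ratio was among the 3 largest or smallest of its list, or to describe a region or a sum of markers. Members, lists and rules were chosen with earlier results of these data known. Some genes that this rule would name are not reported here.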

Additional observations from a re-analysis of the deposited data

Results flagged for a closer look

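Levels of the 9 factors in regions 4, 5, 6, 9 and 10 were set against all other spots of the same genotype. This was done in control and in Nf1Postn separately. In 10 cases both control sections lay below their other spots and both Nf1Postn sections above theirs, 1 of them, Sox6 in region 9, only because a group under 3 UMIs was set to 3. The share of all genes with this opposite pattern was not computed, so the count cannot show whether the factors stand out. The differences themselves were not tested. Values are the pooled log2 ratio in control minus that in Nf1Postn.

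In region 6, led by Mmp3, Il1rn and Zbp1, the difference was -1.45 for Runx2, -1.46 for Runx3, -1.29 for Sp7 and -1.26 for Dlx5. Runx2 there stood at -0.35 in control and at 1.10 in Nf1Postn. In region 9, a shallow region led by Angptl7 and Cilp2, the difference was -0.31 for Sox6, -1.11 for Runx1, -0.92 for Runx3 and -1.22 for Sp7. The Sox6 case rests on 5 and 5 UMIs in control and 2 and 8 UMIs in Nf1Postn, and with its 2 UMIs as counted (26.3 CPM) section 1 of Nf1Postn lay below its other spots. Runx1 in region 9 rests on 4 and 3 UMIs in control and 3 and 6 UMIs in Nf1Postn. None of these factors reached the minimum of UMIs within region 9, nor did Sp7 and Dlx5 within region 6 or Runx1 within region 4. In region 4, led by Mepe and globin genes, the difference was -2.11 for Sox9 and -0.99 for Runx1, with Sox9 at -1.64 in control and 0.46 in Nf1Postn.

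The spots set against each region differ between the calluses. Muscle fiber region 1 held 3.25% of control and 22.3% of Nf1Postn spots, region 13 held 0.0575% and 7.25%, and cartilage regions 8 and 12 held 11.2% and 7.04% of control but 0.932% and 0.138% of Nf1Postn spots. Their part in the differences was not tested.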

How the results depend on the processing

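Alternatives on spots under 1% muscle fiber UMIs and on both cartilage regions together were added after seeing the data. Of 9 factors, 3 were at least 2-fold higher in control. The count was 1 (Sox9) when spots were thinned to 1000 UMIs, without muscle fiber regions and in spots under 1% muscle fiber UMIs, 6 by the mean of log2(CPM + 1), and from 3 to 5 with 1 section left out. Section 1 decides this range, since without it Runx2 and Dlx5 pass as well (5). TMM and DESeq2 scaling gave 4. For the alternatives here and below, the share over all genes was not computed, except without a minimum of UMIs. Their counts therefore have no background to be set against. For the cartilage region (region 8), where 1 factor passed, the count was 3 with members and lists kept in the clustering, 2 with both cartilage regions together and from 1 to 2 with a section left out. At resolution 1.0 and with members and lists kept, the region with the most chondrocyte markers shared 0 spots with region 8, and 101 of its 126 and 211 of its 213 control spots lay in region 12. For the bone region, 2 factors higher became 0 at resolution 1.0, 1 with members and lists kept and 0 after thinning, and 2 lower became 1 at resolution 1.0 and 1 after thinning. Within regions, 2 pairs of factor and region became 0 at resolution 0.3, 5 at resolution 1.0, 1 with members and lists kept, and from 9 to 10 with 1 section. With 1 section left out, a call needed 2-fold in the other section alone, and more regions held enough spots of both genotypes. No minimum of UMIs was set for the pairs. The counts with 1 section are thus not like for like with the others. The cause of the other changes was not tested. No called ratio changed sign. Against a fixed fold limit, which is not a counting interval, 261 ratios of single factors moved by less and 36 by more. Without a minimum of UMIs, 13.3% of genes passed as lower in control. There a gene with 3 UMIs in every group passes through the larger UMI total of control alone, so no conclusion is drawn from this share. No paired analysis was possible because each genotype was taken as 1 mouse. The ratios within each section, which pair the genotypes, thus leave no replicate to test.
Depth in Nf1Postn, with a median of 2030 and 3239.75 UMIs per spot, limits low genes such as Sox5, which had 22 and 37 UMIs there, and the Nf1Postn cartilage spots number 31 in all. Sections of 1 block measure neither the spread between mice nor that between blocks.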
